A study of Homo sapiens with 4 samples.

Results

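The 47 genes described here act in the repair of DNA crosslinks and bulky adducts, and they were read by symbol from a table of 58735 genes. They comprise 12 genes of the Fanconi anaemia pathway, 17 genes of homologous recombination, 4 checkpoint kinases, 11 genes of nucleotide excision repair and 3 translesion polymerases. RNA-seq was performed on 4 libraries, 1 for the adherent form and 1 for the spheroid form of each of the lines HCT116 and LOVO. Both are established lines of human colorectal cancer, and all 4 samples were labelled wild type. Adherent cells were maintained in RPMI-1640 with fetal bovine serum and carried no treatment. The spheroid samples carried a treatment label of 1 mg/ml with no agent named, whereas the study describes oxaliplatin, a platinum drug, at 1 μg/ml. The study grew spheroids on ultralow attachment dishes in a serum-free medium with B27, N2, bFGF and EGF. Growth form, medium and drug therefore changed together and cannot be told apart.

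Platinum drugs bind DNA and leave mostly intrastrand adducts, which nucleotide excision repair cuts out, and a smaller number of interstrand crosslinks. A crosslink that stalls a replication fork is recognised by the Fanconi anaemia core complex, which attaches ubiquitin to the paired proteins FANCD2 and FANCI. Nucleases then unhook the crosslink, translesion polymerases copy past the remnant, and homologous recombination rebuilds the broken arm, while the kinases ATM, ATR, CHEK1 and CHEK2 hold the cell cycle. Many of these genes are transcribed mainly in dividing cells.

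Values were in FPKM, the fragments of a gene scaled to its length in kilobases and to a library of 1000000 fragments, and differences were taken as log2(FPKM + 1), so the change of a low gene is understated. The 14429 genes with a mean of at least 1 FPKM over the 4 libraries were compared, and a gene past 1 in size was counted as different. With 1 library for each condition, differences within a line have no replicate check, and none was given a p-value. The interval beside a log2 ratio is an exact 95% interval from the reads behind the FPKM values, without a pseudocount, and it covers counting error only. Reads on genes numbered between 15483569 and 20429147 for each library. Where 4 values are given in a row, HCT116 comes before LOVO and the adherent form before the spheroids.

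The libraries labelled LOVO went against that label in part. EPCAM, an adhesion molecule of epithelium, was at 85.6 and 79.3 FPKM in the adherent and spheroid HCT116 libraries and at 0.93 and 1.5 FPKM in the LOVO libraries. CDH1, epithelial cadherin, was at 31.1 FPKM in both HCT116 libraries and at 0.117 and 0.00805 FPKM in the LOVO libraries, and CDX2 had 0 reads in both of the latter. Keratin KRT18 was present in all 4, at 253, 206, 122 and 98.8 FPKM. Of 8 colonic epithelial markers, 6 and 7 reached 1 FPKM in the HCT116 libraries against 3 and 4 in the LOVO libraries, and their summed level was 1750, 1290, 327 and 187 FPKM. Of 4 fibroblast markers, 1 reached 1 FPKM in each HCT116 library and 3 did in each LOVO library, with DCN at 0 reads in HCT116 and at 10.4 and 9.97 FPKM in LOVO. COL1A1 did not separate the lines in this way, at 5.51, 15.5, 9.89 and 6.1 FPKM. The summed level of the 4 was 5.59, 15.7, 21.8 and 17.2 FPKM, close between the spheroid libraries. Of 3 endothelial markers, 0 reached 1 FPKM in the HCT116 libraries and 1 and 2 did in the LOVO libraries, and none of 4 leukocyte markers reached it in any library. The part of these differences in the values from the libraries labelled LOVO was not tested. The HCT116 levels do not use those libraries, but the filter on low values was taken over all 4. With the filter over the HCT116 libraries alone, an alternative chosen after seeing the data, RAD51B dropped out and 8 of 43 repair genes (18.6%) were below -1 in HCT116 spheroids, against 3.53% of 14037 genes.

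Of the 47 repair genes, 44 passed the filter and RAD50, RAD54B and ERCC5 did not. The median of all 47 was 4.25 and 3.56 FPKM in the adherent and spheroid forms of HCT116 and 6.9 and 6.13 FPKM in those of LOVO. The highest gene was UBE2T in adherent HCT116 cells and in spheroids of LOVO, at 30.7 and 43.1 FPKM, and DDB1 in HCT116 spheroids and adherent LOVO cells, at 24.6 and 45.4 FPKM. The lowest was ERCC5 in 3 libraries, at 0.476, 0.39 and 0.724 FPKM, and RAD50 at 0.839 FPKM in LOVO spheroids, where ERCC5 was at 1.28 FPKM.

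**Figure D1:**
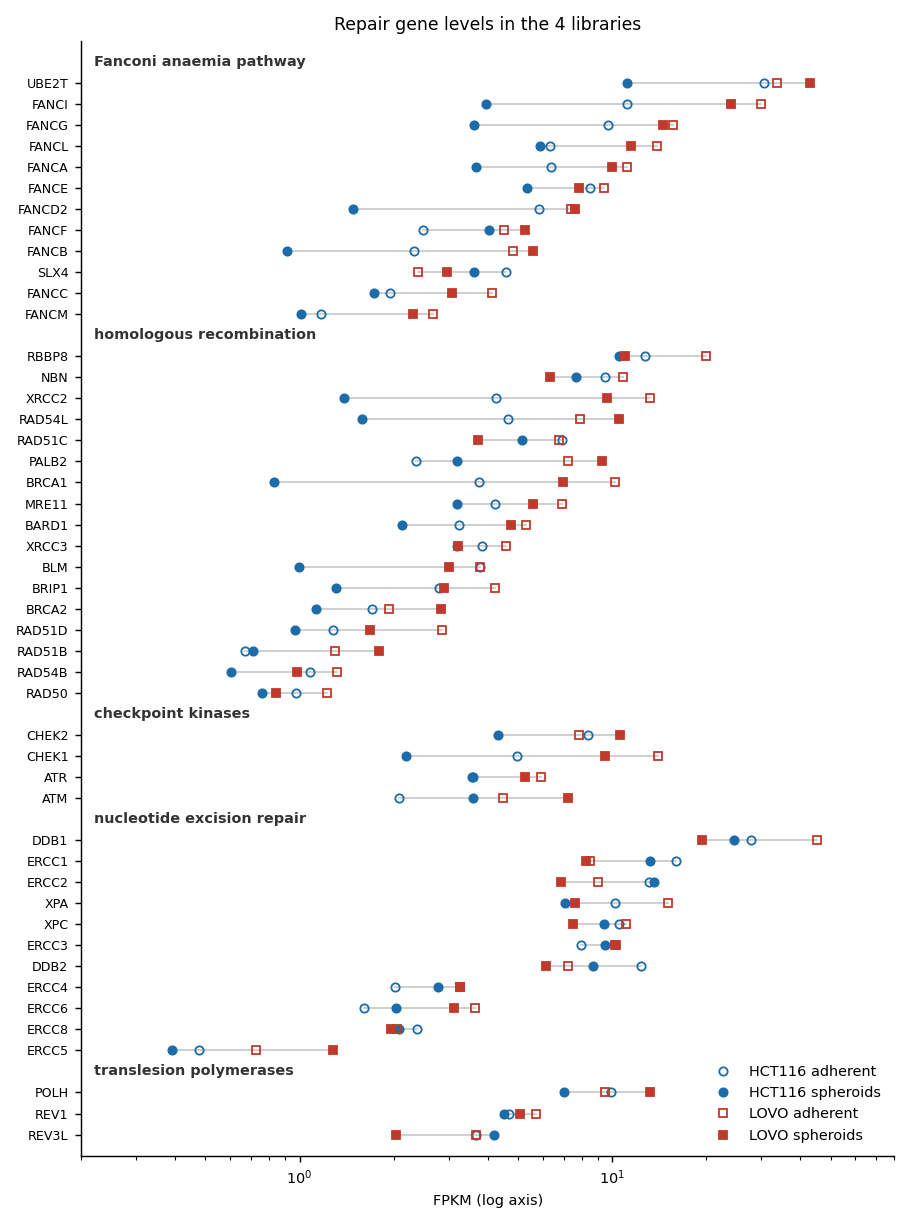
FPKM (log axis) of each of the 47 repair genes in the 4 libraries, grouped by role, with circles for HCT116, squares for LOVO, open symbols for adherent cells and filled symbols for spheroids. Filled circles stand to the left of open circles for UBE2T, FANCI, FANCG, FANCD2, BRCA1 and BLM. Among excision repair genes, the symbols of ERCC8 lie close together, while those of DDB1 and XPA are spread.

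Spheroids were compared with adherent cells of the same line to see how the repair genes stood in the drug-treated, anchorage-free state. In HCT116, 8 of the 44 genes were below -1 (18.2%), against 3.33% of all genes compared, and 0 were above 1, against 2.19%. The 8 were FANCD2, FANCI, FANCG and UBE2T of the Fanconi anaemia pathway and BRCA1, BLM, XRCC2 and RAD54L of homologous recombination. A lower value in spheroids was seen for 35 of the 44 genes (79.5%, against 53.4% of all genes), with a median difference of -0.27 against -0.03 for all genes. In LOVO, 1 gene, DDB1, was below -1 (2.27%, against 7.85% of all genes) and 0 were above 1, against 8.57%. A lower value was seen for 32 genes (72.7%, against 53.5%), with a median of -0.16 against -0.06. The LOVO direction depended on scaling, since after rescaling to TPM 23 of the same 44 genes (52.3%) were lower, with a median of -0.01, whereas in HCT116 34 (77.3%) were. With a mean of at least 5 FPKM required, the LOVO median on the deposited scale was -0.25, against -0.215 for all genes kept. On the deposited scale, 27 genes were lower in spheroids of both lines (61.4%, against 35.1%), 4 were higher in both (9.09%, against 27.2%), and 0 were below -1 in both, against 0.88% of all genes.

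**Figure D2:**
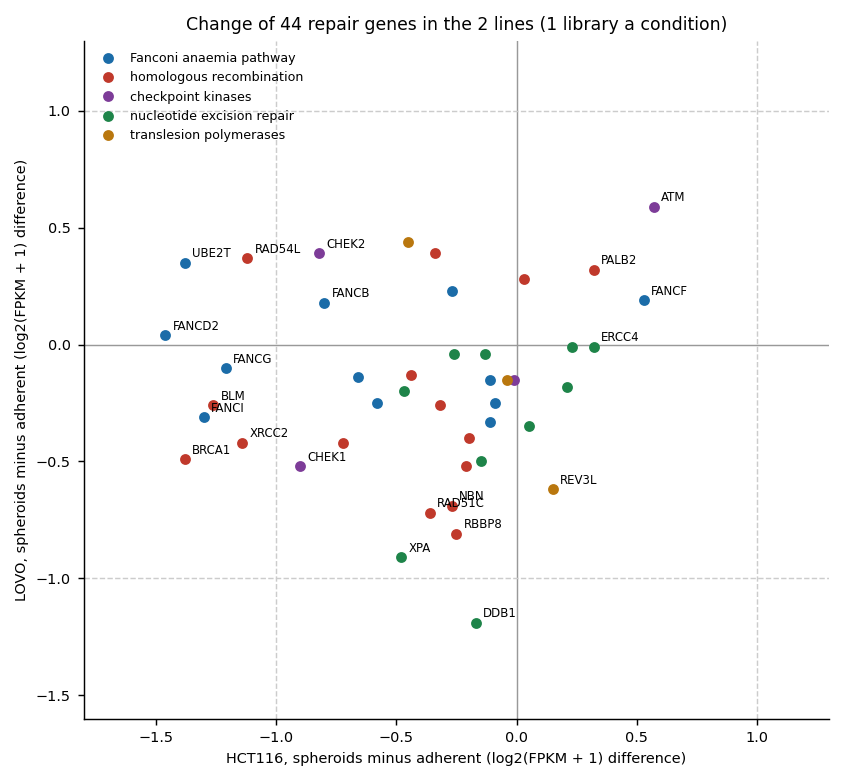
Difference between spheroids and adherent cells on the log2(FPKM + 1) scale in HCT116 (horizontal) and LOVO (vertical) for 44 repair genes coloured by role, with dashed lines at -1 and 1. The 8 genes left of -1 in HCT116 lie between -0.49 and 0.37 in LOVO, and DDB1 alone is below -1 in LOVO.

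The Fanconi anaemia genes as a group were lower in HCT116 spheroids, whereas in LOVO spheroids they went both ways. Their summed level was 91.1 FPKM in adherent and 46.5 FPKM in spheroid HCT116 cells, a ratio of 0.51, and 140 and 138 FPKM in the LOVO libraries, a ratio of 0.986. Without UBE2T, the highest of them, the sums were 60.4 and 35.2 FPKM in HCT116 and 106 and 94.8 FPKM in LOVO, ratios of 0.584 and 0.893. In LOVO the counting interval lay below 0 for 6 of the 12 genes, against 42.0% of all genes, and above 0 for 2, UBE2T and SLX4, against 32.1%. The median difference over the 12 genes was -0.62 in HCT116 and -0.12 in LOVO, and 11 and 7 of them were lower in spheroids (91.7% and 58.3%, against 53.4% and 53.5% of all genes). Rescaled to TPM, 5 of the 12 were lower in LOVO, and the medians were -0.68 in HCT116 and 0.08 in LOVO.

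FANCD2, the clamp protein that receives ubiquitin, lies on chromosome 3 at 10026414-10101930 (GRCh38, plus strand) and was at 5.83 FPKM in adherent and 1.48 FPKM in spheroid HCT116 cells, and at 7.41 FPKM in adherent and 7.63 FPKM in spheroid LOVO cells. HCT116 spheroids alone stood low, with 208 reads against 996 to 1287 in the other 3 libraries. The difference of -1.46 in HCT116 corresponded to a log2 ratio of -1.98 (interval -2.20 to -1.76), and the ratio in LOVO was 0.04 (interval -0.07 to 0.16). FANCI, its partner in the clamp, was at 11.2, 3.95, 30 and 24 FPKM in the same order of libraries, with differences of -1.30 and -0.31. FANCI was thus lower in spheroids of both lines, and both LOVO libraries stood above both HCT116 libraries.

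UBE2T, the ubiquitin-conjugating enzyme of the pathway, was at 30.7 and 11.2 FPKM in adherent and spheroid HCT116 cells and at 33.6 and 43.1 FPKM in the LOVO libraries. The adherent libraries of the lines were close, whereas the log2 ratio within a line was -1.46 (interval -1.64 to -1.27) in HCT116 and 0.36 (interval 0.24 to 0.47) in LOVO. FANCG, a core complex subunit, was at 9.69, 3.62, 15.7 and 14.6 FPKM, with a difference of -1.21 in HCT116 and -0.10 in LOVO. Its LOVO interval, -0.23 to 0.02, held 0.

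Among the other core complex subunits, FANCA was at 6.38, 3.68, 11.2 and 10 FPKM, FANCB at 2.32, 0.911, 4.83 and 5.59 FPKM, and FANCE at 8.49, 5.33, 9.45 and 7.81 FPKM, and none passed 1 in size in either line. FANCF, an adaptor of the same complex, went the other way, at 2.48 FPKM in adherent HCT116 cells and 4.03 in spheroids, with a log2 ratio of 0.70 (interval 0.39 to 1.02). In LOVO FANCF was at 4.50 and 5.25 FPKM and its interval, -0.02 to 0.47, held 0. FANCL, the ubiquitin ligase, FANCC, another core subunit, and FANCM, the DNA translocase that anchors the complex, differed by -0.33 to -0.09 in either line. SLX4, the scaffold that gathers the unhooking nucleases, was at 4.56 and 3.61 FPKM in HCT116 and at 2.39 and 2.97 FPKM in LOVO, so it was lower in spheroids of one line and higher in those of the other.

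The homologous recombination genes had a summed level of 67.6 and 45.3 FPKM in adherent and spheroid HCT116 cells and of 110 and 85 FPKM in the LOVO libraries. The median difference over the 15 genes that passed the filter was -0.34 in HCT116 and -0.40 in LOVO, or -0.38 and -0.25 after rescaling to TPM. The genes with the largest differences were not the same in the lines. In HCT116 they were BRCA1, BLM and XRCC2, and in LOVO they were RBBP8, RAD51C and NBN.

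BRCA1, which directs breaks towards recombination, lies on chromosome 17 at 43044295-43170245 (GRCh38, minus strand) and was at 3.75, 0.829, 10.2 and 6.96 FPKM. HCT116 spheroids held 128 reads of BRCA1 against 703 in adherent HCT116 cells, a log2 ratio of -2.18 (interval -2.46 to -1.90), while the ratio in LOVO was -0.55 (interval -0.66 to -0.45). BRCA1 was thus lower in spheroids of both lines.

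BLM, the helicase that dissolves recombination intermediates, was at 3.79, 0.999, 3.79 and 3.01 FPKM, so the adherent libraries were level and HCT116 spheroids stood low. XRCC2, a factor that assists strand exchange, was at 4.25, 1.39, 13.2 and 9.64 FPKM, and its differences were -1.14 in HCT116 and -0.42 in LOVO. RAD54L, the motor protein that drives strand exchange, was at 4.63, 1.59, 7.92 and 10.5 FPKM. RAD54L was lower in HCT116 spheroids, with a log2 ratio of -1.54 (interval -1.90 to -1.19), and higher in LOVO spheroids, with a ratio of 0.41 (interval 0.24 to 0.58).

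BRCA2, a mediator of strand exchange, also went in opposite directions, at 1.70 and 1.13 FPKM in HCT116 and 1.93 and 2.83 FPKM in LOVO. PALB2, which joins BRCA1 to BRCA2, was higher in spheroids of both lines, at 2.36 and 3.18 FPKM in HCT116 and 7.24 and 9.27 FPKM in LOVO. Its log2 ratios were 0.43 (interval 0.17 to 0.70) and 0.36 (interval 0.21 to 0.51). BRIP1, a helicase partner of BRCA1, was at 2.79, 1.31, 4.22 and 2.90 FPKM, and BARD1, the dimer partner of BRCA1, was at 3.23, 2.13, 5.32 and 4.76 FPKM.

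RBBP8, which starts end resection, was at 12.7 and 10.5 FPKM in HCT116 and 19.9 and 11 FPKM in LOVO, with differences of -0.25 and -0.81. NBN, a subunit of the break-sensing MRE11 complex, was at 9.50 and 7.69 FPKM in HCT116 and 10.8 and 6.31 FPKM in LOVO. Its partner MRE11, the nuclease, differed by -0.32 and -0.26. Of the other factors that assist strand exchange, RAD51C differed by -0.36 in HCT116 and -0.72 in LOVO, RAD51D by -0.21 and -0.52, and XRCC3 by -0.20 and -0.40. RAD51B was the lowest gene that passed the filter in adherent HCT116 cells, at 0.669 FPKM and 102 reads, and differed by 0.03 and 0.28.

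The promoters of the 8 genes below -1 in HCT116 spheroids were searched for motifs known from genes of dividing cells. These genes were chosen by their HCT116 values, and in LOVO they differed by -0.49 to 0.37. RefSeq windows (GRCh38.p14) of 250 bases before and 50 after the start were matched for 44 of the 47 genes, giving 59 windows, and for 7 of the 8 genes. On either strand, an E2F motif (TTTCCCGC, TTTGGCGC, TTTCGCGC or TTTGCCGC) was found in 3.31% of 35116 windows of all genes and in 6 of the 59 repair gene windows (10.2%). The E2F motif was also held by FANCA, FANCC, REV3L and XPC, which were not below -1 and differed by -0.66, -0.11, 0.15 and -0.15 in HCT116. FANCD2 and XRCC2 held it among the 7 matched genes, and their windows are shown with the match in capitals.

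FANCD2, chr3:10026187-10026486, plus strand: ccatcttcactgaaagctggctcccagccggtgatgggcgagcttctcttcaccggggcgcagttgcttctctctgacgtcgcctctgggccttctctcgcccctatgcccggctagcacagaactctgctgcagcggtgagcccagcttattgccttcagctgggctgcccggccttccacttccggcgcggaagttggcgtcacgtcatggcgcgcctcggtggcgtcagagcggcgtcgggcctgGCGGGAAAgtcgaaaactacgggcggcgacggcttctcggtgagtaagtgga
XRCC2, chr7:152676092-152676391, minus strand: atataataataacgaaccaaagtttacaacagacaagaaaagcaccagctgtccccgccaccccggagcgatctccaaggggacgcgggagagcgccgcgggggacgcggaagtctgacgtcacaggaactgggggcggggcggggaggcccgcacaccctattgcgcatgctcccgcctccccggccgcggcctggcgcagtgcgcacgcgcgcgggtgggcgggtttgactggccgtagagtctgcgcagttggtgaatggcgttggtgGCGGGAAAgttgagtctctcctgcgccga

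The match began at position -2 from the start in FANCD2 and at position 22 in XRCC2. The CHR motif (TTTGAA or TTCGAA), known from genes of the G2 and M phases, was in 16.4% of all windows and in 7 of the 59 (11.9%). Besides UBE2T, these belonged to ATM, BRIP1, DDB2, ERCC1, ERCC6 and FANCC, none of them below -1 in HCT116 spheroids. The CCAAT box was in 34.6% of all windows and in 22 of the 59 (37.3%). UBE2T was the only one of the 7 matched genes with both, and its window is shown with the CHR match and 2 CCAAT boxes in capitals.

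UBE2T, chr1:202341887-202342186, minus strand: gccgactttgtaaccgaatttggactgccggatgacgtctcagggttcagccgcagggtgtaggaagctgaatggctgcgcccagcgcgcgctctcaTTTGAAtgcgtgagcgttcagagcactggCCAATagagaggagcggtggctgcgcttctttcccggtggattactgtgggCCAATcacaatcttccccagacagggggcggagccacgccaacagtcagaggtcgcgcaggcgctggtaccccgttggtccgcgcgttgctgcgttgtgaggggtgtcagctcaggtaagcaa

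The CHR match of UBE2T began at position -153 and the CCAAT boxes at -124 and -73. BLM, BRCA1 and RAD54L also held a CCAAT box. In all, 18 of the 44 matched repair genes did, against 10846 of 27305 genes, a similar share. The p53 half-site was in 6.63% of all windows and in those of BLM and DDB2 (3.39% of the 59). A match describes the letters in a window and not a bound site.

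Genes of the cell cycle were read in the same libraries. All 20 genes of a G2 and M phase list were below -1 in HCT116 spheroids, against 3.33% of all genes, with a median of -1.93. Their summed level was 705 FPKM in adherent and 133 FPKM in spheroid HCT116 cells. In LOVO 5 of the 20 were below -1, against 7.85% of all genes, with a median of -0.82 and summed levels of 698 and 362 FPKM. Of 20 S phase genes, 15 were below -1 in HCT116 (median -1.35) and 3 in LOVO (median -0.75), against the same shares of all genes. Their summed level was 487, 205, 1530 and 950 FPKM. In bulk RNA, fewer dividing cells and less RNA per cell cannot be told apart. The part of cell division in the repair gene values was not tested.

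The checkpoint kinases differed among themselves. ATM, the kinase that answers double-strand breaks, was higher in spheroids of both lines, at 2.08 and 3.59 FPKM in HCT116 and at 4.46 and 7.22 FPKM in LOVO. ATM had the highest difference of the 44 genes in each line, 0.57 and 0.59, with log2 ratios of 0.79 (interval 0.67 to 0.90) and 0.69 (interval 0.61 to 0.77). ATR, the kinase that answers stalled forks, was at 3.58 and 3.56 FPKM in HCT116 and 5.92 and 5.26 FPKM in LOVO, so it stayed nearly level.

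CHEK1, the kinase downstream of ATR, was at 4.96, 2.19, 14 and 9.48 FPKM, with differences of -0.90 and -0.52. CHEK2, the kinase downstream of ATM, was at 8.40, 4.32, 7.82 and 10.6 FPKM. CHEK2 was lower in HCT116 spheroids, with a log2 ratio of -0.96 (interval -1.15 to -0.77), and higher in LOVO spheroids, with a ratio of 0.43 (interval 0.29 to 0.58).

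The nucleotide excision repair genes had median differences close to 0 in both lines, -0.14 in HCT116 and -0.19 in LOVO, or -0.14 and -0.02 after rescaling to TPM. They had a summed level of 105 and 93.4 FPKM in HCT116, a ratio of 0.893, and of 116 and 75.5 FPKM in LOVO, a ratio of 0.65. None of the 10 genes that passed the filter was past 1 in size in HCT116, against 3.33% of all genes below -1 and 2.19% above 1. All 10 were below 0 in LOVO, against 53.5% of all genes, or 6 after rescaling to TPM or centring on the median of all genes. ERCC5, which did not pass, went the other way in LOVO, at 0.724 and 1.28 FPKM, a log2 ratio of 0.82 (interval 0.48 to 1.17). BIVM, a gene that shares exons with ERCC5, was at 3.17 and 5.8 FPKM in the same libraries. Whether the rise belongs to ERCC5 itself was not tested. The sums were led by DDB1, the adaptor of the CUL4 ubiquitin ligase that helps find damage. DDB1 lies on chromosome 11 at 61299451-61342596 (GRCh38, minus strand) and was at 27.8, 24.6, 45.4 and 19.4 FPKM. The adherent LOVO library stood highest, and the log2 ratio was -0.18 (interval -0.23 to -0.13) in HCT116 and -1.23 (interval -1.27 to -1.18) in LOVO. Without DDB1 the sums were 76.7 and 68.8 FPKM in HCT116 and 70.9 and 56.1 FPKM in LOVO, ratios of 0.896 and 0.792.

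XPA, the scaffold that verifies damage, was at 10.2 and 7.05 FPKM in HCT116 and 15.1 and 7.59 FPKM in LOVO, with differences of -0.48 and -0.91. The damage sensors XPC and DDB2 differed by -0.15 and -0.47 in HCT116 and by -0.50 and -0.20 in LOVO. ERCC1, which forms the cutting nuclease with ERCC4, was at 16 and 13.2 FPKM in HCT116 and 8.50 and 8.22 FPKM in LOVO. ERCC4 itself was at 2.02, 2.78, 3.27 and 3.25 FPKM.

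ERCC2 and ERCC3, the helicases of TFIIH, were close between forms, at 13.1 and 13.6 FPKM and at 7.97 and 9.52 FPKM in HCT116. In LOVO ERCC2 was at 9.01 and 6.87 FPKM and ERCC3 at 10.3 and 10.2 FPKM. Of the transcription-coupled factors, ERCC6 was at 1.61 and 2.03 FPKM in HCT116 and 3.64 and 3.11 FPKM in LOVO, opposite in direction, and ERCC8 lay between 1.96 and 2.37 FPKM in all 4 libraries.

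The translesion polymerases had summed levels of 18.3, 15.7, 18.9 and 20.3 FPKM. POLH, polymerase eta, which copies past platinum adducts, was at 9.94 and 7.03 FPKM in HCT116 and 9.48 and 13.2 FPKM in LOVO. REV3L, the catalytic subunit of polymerase zeta, went the other way, at 3.68 and 4.20 FPKM in HCT116 and 3.68 and 2.04 FPKM in LOVO. Both genes were thus nearly equal between the adherent libraries. REV1, the scaffold of the translesion polymerases, lay between 4.52 and 5.71 FPKM.

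Counting error was small beside many of these differences. In HCT116 the interval lay below 0 for 29 of the 44 genes (65.9%, against 35.0% of all genes) and above 0 for 7 (15.9%, against 27.2%). In LOVO it lay below 0 for 26 (59.1%, against 42.0%) and above 0 for 9 (20.5%, against 32.1%). UBE2T, POLH, CHEK2, RAD54L, REV3L, SLX4, ERCC6 and BRCA2 had intervals on opposite sides of 0 in the lines, 8 of 44 (18.2%) against 14.0% of all genes. Their directions were the same after rescaling to TPM, after a trimmed-mean scaling and after centring. The intervals were taken on the deposited scale only, so whether each still excludes 0 under another scaling was not tested. Over the 44 genes the differences in the lines had a Pearson r of 0.046 and a Spearman rho of 0.071, against 0.302 and 0.353 over all 14429 genes, where genes share their libraries and are not independent.

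A fit across both lines with cell line as a covariate, by limma with Benjamini-Hochberg adjustment, left 1 residual degree of freedom. It called 0 of 14429 genes at an adjusted p under 0.05, with 0.462 the smallest adjusted p, and 1545 genes had an unadjusted p under 0.05. Of the 44 repair genes, 4 had an unadjusted p under 0.05, a share no higher than the 1545 of all 14429 genes. They were BRCA1, CHEK1, XPA and XRCC2, all lower in spheroids. None of the 44 repair genes passed after adjustment. The fit tested only the difference between spheroids and adherent cells averaged over both lines. Differences within a line, or between the lines, were not put to it.

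The lines were next compared within each growth form, where the labelled line and its single library cannot be told apart. The 4 comparisons share their libraries and are not independent of each other. Among adherent cells, 9 of the 44 genes were lower in LOVO (20.5%, against 46.9% of all genes), 6 were above 1 (13.6%, against 17.4%) and 0 were below -1, against 16.4%. Among spheroids, 10 were lower in LOVO (22.7%, against 48.4%), 13 were above 1 (29.5%, against 17.7%) and 0 were below -1, against 15.0%. The adherent count above 1 became 12 with a pseudocount of 0.1 or 0.01 and after rescaling to TPM.

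FANCI, CHEK1, XRCC2, PALB2 and BRCA1 were above 1 in both comparisons. FANCI differed by 1.34 among adherent cells and 2.33 among spheroids, XRCC2 by 1.44 and 2.16, BRCA1 by 1.24 and 2.12, CHEK1 by 1.33 and 1.72, and PALB2 by 1.30 and 1.29. FANCL was past 1 among adherent cells, at 1.02, and not among spheroids, at 0.86. UBE2T, FANCD2, RAD54L, FANCG, FANCB, FANCA, CHEK2 and BLM were past 1 among spheroids and not among adherent cells, and BLM was so narrowly, at 1.00.

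By role, the median difference between adherent lines was 0.69 for the Fanconi anaemia genes, 0.58 for homologous recombination, 0.71 for the kinases, 0.20 for excision repair and 0.00 for the translesion polymerases. Between spheroids it was 1.05, 0.75, 0.98, -0.17 and 0.13. The excision repair genes ERCC1, ERCC2 and DDB2 were lower in LOVO in both comparisons, at -0.84 and -0.62, -0.49 and -0.89, and -0.71 and -0.44.

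**Figure D3:**
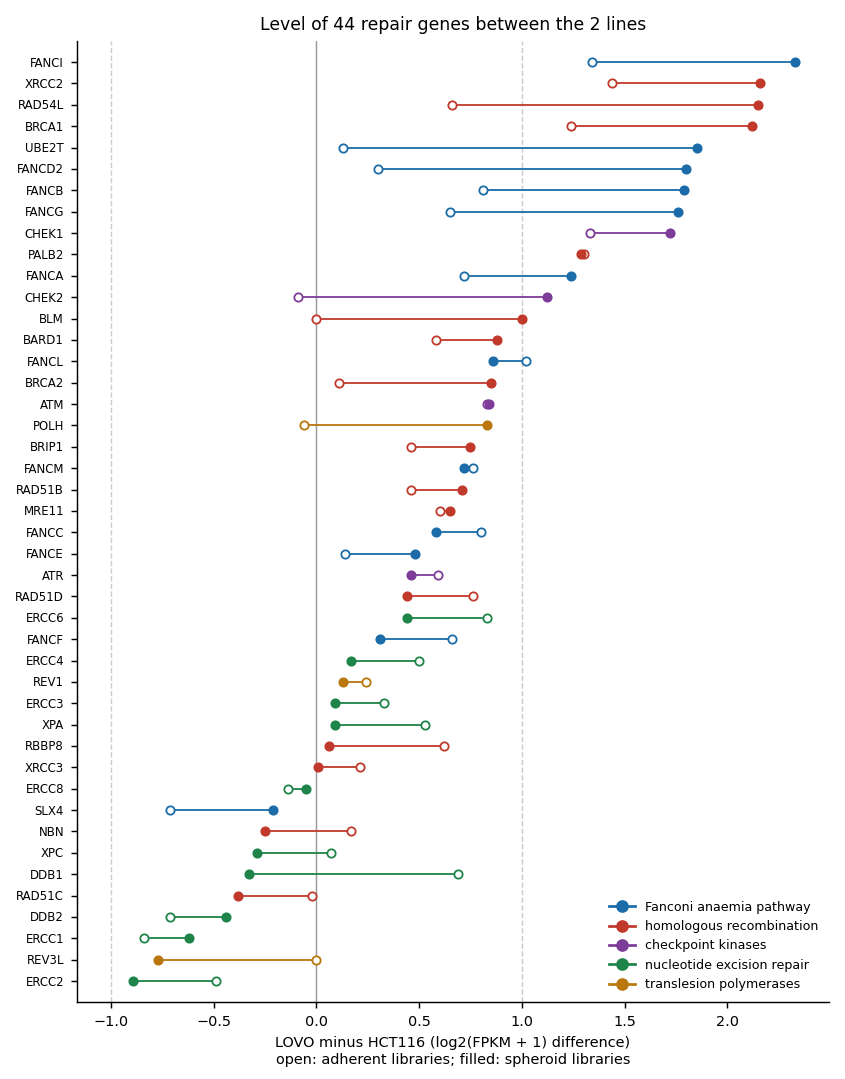
LOVO minus HCT116 on the log2(FPKM + 1) scale for 44 repair genes ordered by the spheroid difference, with open points for adherent libraries, filled points for spheroid libraries and dashed lines at -1 and 1. FANCI reaches 2.33 between spheroids, while ERCC1, ERCC2 and DDB2 lie below 0 in both forms.

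The other genes of these pathways were read from lists that exclude the 47. Of 28 other Fanconi and recombination genes that passed the filter, 3 were below -1 in each line, against 3.33% of all genes in HCT116 and 7.85% in LOVO. None was above 1, against 2.19% and 8.57%, and the medians were -0.29 and -0.11. EXO1, the exonuclease of end resection, was at 5.81, 0.834, 49.1 and 12.1 FPKM and was the lowest of the list in both lines, at -1.89 and -1.93. EME1, a nuclease partner of MUS81, differed by -1.59 in HCT116 and 0.76 in LOVO. USP1, which removes ubiquitin from FANCD2, differed by -0.66 and -1.17.

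Of 16 checkpoint partners, 3 were below -1 in HCT116 and 2 in LOVO, against 3.33% and 7.85% of all genes. Their medians were -0.43 and -0.44. H2AFX, the histone marked at breaks, was at 84.4, 22.8, 67.9 and 41.9 FPKM. Of 15 other excision repair genes, 0 were past 1 in size in HCT116, against 3.33% of all genes below -1 and 2.19% above 1. In LOVO 1 was below -1 and 1 above 1, against 7.85% and 8.57% of all genes. The low one was CUL4A, the cullin of the DDB1 ligase, at 11.6 and 12 FPKM in HCT116 and 31.8 and 12 FPKM in LOVO, and the high one was UVSSA, a factor of transcription-coupled repair, at 1.15. CUL4A and DDB1 were thus both highest in the adherent LOVO library.

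The 3 repair genes that failed the filter share most of their exons with another gene on the same strand in the GENCODE 29 annotation (GRCh38). RAD50, a subunit of the MRE11 complex, shared 79.7% of its 9771 exonic bases, mainly with AC116366.3, and was at 0.974, 0.761, 1.22 and 0.839 FPKM. ERCC5, the 3' nuclease of excision repair, shared 63.2% with BIVM and the readthrough gene BIVM-ERCC5. BIVM was at 1.61, 1.54, 3.17 and 5.8 FPKM, and like ERCC5 it was higher in LOVO spheroids than in adherent LOVO cells. RAD54B, a relative of RAD54L, shared 59.1% with FSBP and was at 1.08, 0.605, 1.32 and 0.982 FPKM.

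The next gene, ERCC8, shared 28.3% and RAD51D 8.87%. The 3 genes over 50% are those that failed the filter, and the other 44 passed it. Their medians of the mean level, 0.949 and 5.55 FPKM, therefore had to lie on either side of 1 FPKM. In the other lists, some genes that shared over 50% on the same strand passed the filter and some did not. BIVM-ERCC5 had 0 reads in all 4 libraries, and AC116366.3 had 1 to 7 reads. FPKM divides by the whole exonic length, so levels of these genes are uncertain, and whether reads in shared exons were left out was not tested. XRCC3 shared 76.7% of its exons with KLC1 on the other strand and lay between 3.20 and 4.58 FPKM.

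**Figure D4:**
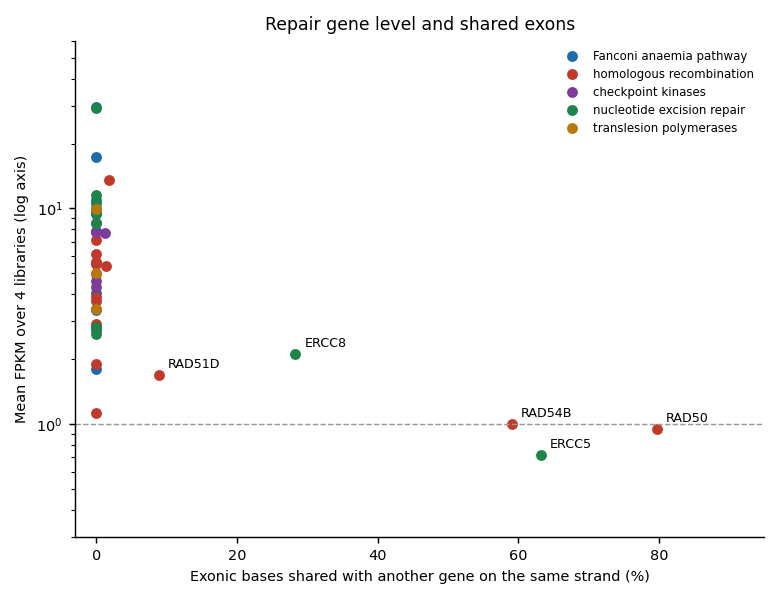
Mean FPKM over the 4 libraries (log axis) against the percent of exonic bases shared with another gene on the same strand, for the 47 repair genes coloured by role. RAD50, ERCC5 and RAD54B, all above 50% shared, lie under the dashed line at 1 FPKM, RAD54B only just.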

How the data were processed

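RNA was taken from 4 cultures with the RNeasy mini plus kit and made into libraries with a SMARTER mRNA-Seq kit, per the labels. The authors deposited 1 table of FPKM values for 58735 genes, with 1 column for each library. The aligner, the counting tool and the strand setting are not given in the sources used here. The submitters' processing notes list the mouse builds GRCm38 and mm10, whereas all 58735 gene identifiers of the table matched the human GENCODE 29 annotation (GRCh38), 58724 of them with the same start and end.

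FPKM multiplied by gene length gave whole reads for 100% of values (tolerance 0.01). These reads served for depth and for exact 95% binomial intervals of a ratio, to which no floor was applied. For scale, 3 reads correspond to 0.147 to 0.179 FPKM for a gene of 1 kilobase. Library sizes used in the table were 0.907 to 1.09 times the reads on genes. Genes averaging 1 FPKM or more were compared on the log2(FPKM + 1) scale in Python 3.11.15, and limma 3.58.1 in R 4.3.3 was fitted over both lines with cell line as a covariate. The scripts were tested on simulated data.

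All 47 genes are described. Values in every library are given for genes past 1 in size in a spheroid comparison or in both comparisons of lines, for the highest and lowest genes and for genes of opposite direction in the lines. Genes named beyond these illustrate their role, and at most 3 genes are named for each other list. Of these lists, 1 gene is not reported here. The genes and lists were chosen with earlier results of these data known. Alternatives changed the pseudocount, the filter, the scaling, the threshold and the covariate.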

Additional observations from a re-analysis of the deposited data

Results flagged for a closer look

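In all, 8 genes had a difference between spheroids and adherent cells in opposite directions in HCT116 and LOVO, with counting intervals that excluded 0 in both lines. These were 18.2% of the 44 genes compared, against 14.0% of all genes. With 1 library for each condition, the difference between the lines was not tested. The LOVO difference minus the HCT116 difference on the log2(FPKM + 1) scale was 1.73 for UBE2T, 1.49 for RAD54L, 1.21 for CHEK2, 0.89 for POLH, 0.73 for BRCA2 and 0.50 for SLX4, which were lower in HCT116 spheroids and higher in LOVO spheroids. It was -0.77 for REV3L and -0.39 for ERCC6, which were higher in HCT116 spheroids and lower in LOVO spheroids. FANCD2 had a similar distance between the lines, 1.50, but its LOVO interval held 0.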

How the results depend on the processing

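Over 9 alternatives, the 9 genes past 1 in size in a spheroid comparison kept their direction and stayed past 1 in all 80 values computed. Most of these values could not have failed. A change of filter or a limit to protein-coding genes cannot alter a gene's own difference, and a smaller or absent pseudocount can only enlarge it. Only TPM, trimmed-mean scaling and centring could have brought a gene under 1 in size. DDB1 in LOVO came nearest, at -1.01 after rescaling to TPM. Of 142 alternative values of the 15 counts and medians, 128 stayed near the reported value. The margin for near was wide. With TPM and its own filter, genes lower in LOVO spheroids went from 32 to 25 and their median from -0.16 to -0.02, and both counted as near. A limit to protein-coding genes could not change the counts, since all repair genes are protein coding. With a threshold of 2, the count was 0 for lower genes in HCT116 spheroids, 0 in LOVO spheroids, 0 for genes higher in adherent LOVO cells and 4 for genes higher in LOVO spheroids. Genes higher in adherent LOVO cells than in adherent HCT116 cells numbered 12 with a pseudocount of 0.1, with one of 0.01 and after rescaling to TPM. Both smaller pseudocounts gave 1 gene lower in LOVO than in HCT116 spheroids, and TPM gave 22 that were higher. Over the same 14429 genes, TPM moved the median from -0.055 to 0.095 in LOVO and from 0.039 to 0.264 between spheroids, so directions near 0 in those comparisons are relative to that shift. With a mean of at least 5 FPKM required, fewer genes were counted, and those below 0 numbered 21 in HCT116, 18 in LOVO and 16 in both. The repair gene medians were then -0.47 in HCT116 and -0.25 in LOVO, against -0.117 and -0.215 for all 8146 genes kept. The limma fit, which paired the forms by cell line, called 0 genes under every alternative run. Without the cell line covariate, 163 genes and 0 repair genes had an unadjusted p under 0.05, against 1545 and 4 with it. Leaving out a replicate was not possible with 1 library for each condition, and the single libraries limit every value.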

Other observations

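Further repair routes were read as lists. Of all genes compared, 3.33% were below -1 and 2.19% above 1 in HCT116 spheroids, and 7.85% and 8.57% in LOVO spheroids. Of 11 end joining genes, which rejoin breaks without a template, 0 were past 1 in size in HCT116 spheroids and 2 were below -1 in LOVO spheroids, with medians of -0.19 and -0.07. XRCC5 and XRCC6, the subunits of the Ku ring, were at 92.4 and 196 FPKM in adherent LOVO cells and at 41.5 and 98 FPKM in LOVO spheroids. PRKDC, the kinase that Ku recruits, was at 70.1 and 33.1 FPKM in the same libraries. Of 7 other translesion genes, 0 were past 1 in size in either line. POLI, polymerase iota, was higher in spheroids of both lines, at 0.51 and 0.57, and RAD18, the ligase that marks PCNA for translesion synthesis, was at -0.79 in HCT116 and -0.07 in LOVO.

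Of 17 p53 target genes, a list that leaves out DDB2, XPC and POLH, 2 were above 1 in spheroids of each line, against 2.19% and 8.57% of all genes. Of the 17, 0 were below -1 in HCT116 and 1 in LOVO, against 3.33% and 7.85%, and the medians were 0.00 and -0.07. The low one was TP53I3, at 1.21 in HCT116 and -1.32 in LOVO. Their summed level was 492 and 503 FPKM in HCT116 and 160 and 174 FPKM in LOVO. Between the lines 9 of the 17 were below -1 among adherent cells and 10 among spheroids, against 16.4% and 15.0% of all genes. CDKN1A, the cell cycle inhibitor, was at 202 and 201 FPKM in HCT116 and at 24.5 and 63.9 FPKM in LOVO.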
